A study of Mus musculus with 24 samples.

Results

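The genes described are Axl, Fn1, Ccn1, Ccn2, Thbs1 and Tnc, a set of 6 genes for a receptor and for secreted matrix proteins that are often high in melanoma cells which have lost part of their melanocyte character. They were chosen by name, with earlier results of these data known. Of the 6, 5 have counts (Axl, Fn1, Ccn1, Ccn2 and Thbs1) among 15738 named genes, and these 5 were all tested with 13527 genes in all. Tnc was not analysed here.

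RNA was sequenced from B16F10, a pigmented mouse melanoma cell line, grown as 4 lines. These were a control (labelled WT, but carrying a control knockout per the treatment protocol), an Rnf31 knockout, an Atg5 knockout and an Rnf31/Atg5 double knockout. Rnf31 (HOIP) builds linear ubiquitin chains, among other places at TNF receptors, and Atg5 takes part in forming autophagosomes. Each line received vehicle or 2 ng/ml TNFα, an inflammatory cytokine, for 24 h, which gives 8 groups of 3 libraries labelled as biological replicates, 24 libraries in all. Whether each line is a clone or a pool, and where the genes were edited, are not stated in the sources used here; a difference between lines cannot be told apart from a difference between clones. Nothing in the labels says that replicates were separate cultures, so each p-value reflects only how far these libraries spread, which may be technical.

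Totals over named genes ran from 19425795 to 33385502 counts per library. Levels are given in CPM (counts scaled to a common library size). With the edited positions not stated, transcript levels of the targeted genes cannot decide whether a knockout worked. Atg5 was at 22.2 ± 2.35 CPM (SD, n = 3) in the Atg5 knockout and 54.7 ± 6.26 CPM (SD, n = 3) in control cells with vehicle, and Rnf31 was at 8.04 ± 0.421 CPM in the Rnf31 knockout and 9.79 ± 1.08 CPM in control cells. The double knockout held 25.3 ± 1.44 CPM of Atg5 and 6.62 ± 0.222 CPM of Rnf31, and the Atg5 knockout 13.2 ± 0.836 CPM of Rnf31 (SD, n = 3 each). Control vehicle replicate 2 stood apart, and a chi-square comparison with its 2 group mates gave 32.1 and 20.2 per degree of freedom, against at most 9.04 for every other pair within a group. That library gave the lowest vehicle control value for each of the 5 genes, and results that change without it are named below. All 10 melanocyte-lineage genes were present, with summed levels of 18218 to 22143 CPM over the 24 libraries.

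Axl is a receptor tyrosine kinase whose ligand is Gas6, and in melanoma a high level of it accompanies low activity of the pigment-cell factor Mitf. Fibronectin (Fn1) is a fibre-forming matrix glycoprotein bound by integrins. Ccn1 and Ccn2, formerly Cyr61 and Ctgf, and thrombospondin-1 (Thbs1) are matricellular proteins, which signal to cells from the matrix, and Ccn1 and Ccn2 are textbook targets of YAP and TAZ (gene Wwtr1), the TEAD coactivators that the Hippo kinases restrain. Thrombospondin-1 binds Cd47 and can release TGF-β from its latent form.

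On GRCm38 with the GENCODE M21 annotation, all 5 are protein-coding. Axl lies at chr7:25757273-25788705 on the minus strand, Fn1 at chr1:71585520-71653200 on the minus strand and Ccn1 at chr3:145646976-145649981 on the minus strand. Ccn2 lies at chr10:24595442-24598683 and Thbs1 at chr2:118111876-118127133, both on the plus strand. Reads were summed over whole genes, so the values do not separate exons or isoforms; the longest annotated transcripts have 20 exons (Axl), 46 (Fn1), 5 (Ccn1), 4 (Ccn2) and 22 (Thbs1).

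The 250 bases before the transcript start are shown for those of the 5 that have a RefSeq promoter entry on GRCm38.p6. These are Axl at chr7:25788734-25788983 and Ccn1 at chr3:145649986-145650235. Both are printed 5′ to 3′ on the gene's own strand (minus), with matched motifs in capitals. Promoters of Fn1, Ccn2 and Thbs1 are not shown.
Axl: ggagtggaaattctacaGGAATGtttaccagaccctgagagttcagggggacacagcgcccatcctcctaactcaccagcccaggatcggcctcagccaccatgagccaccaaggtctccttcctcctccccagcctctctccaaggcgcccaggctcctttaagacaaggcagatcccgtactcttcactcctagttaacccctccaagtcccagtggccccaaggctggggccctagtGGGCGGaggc
Ccn1: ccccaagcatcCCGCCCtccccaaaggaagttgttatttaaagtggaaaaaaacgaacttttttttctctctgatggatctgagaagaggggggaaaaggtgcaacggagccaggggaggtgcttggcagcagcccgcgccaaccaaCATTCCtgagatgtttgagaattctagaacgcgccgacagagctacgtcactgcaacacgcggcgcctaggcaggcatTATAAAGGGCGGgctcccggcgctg

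A set of 5 motifs was searched on both strands. The capitals mark the TEAD word GGAATG, the TATA word TATAAA and the SP1 word GGGCGG, or their reverse complements. In Ccn1 the TATA word runs straight into an SP1 word. The Axl window holds the TEAD word starting 233 bases before the start and an SP1 word at 10 bases, and its GC content is 60%. The Ccn1 window holds the TEAD word on the other strand at 103 bases, TATAAA at 25 bases and SP1 words at 239 and 19 bases, with a GC content of 54.8%. Neither window holds the AP-1 word TGANTCA or a CArG box, the site of SRF. Of 32851 mouse promoters in windows of the same length, 12.6% hold the TEAD word, 12.4% TATAAA, 32.7% the SP1 word, 6.75% the AP-1 word and 1.47% a CArG box. These matches describe letters in the windows and not binding.

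With vehicle, all 5 genes were higher in the Atg5 knockout than in control cells, and Axl, Fn1 and Thbs1 were also higher in the Rnf31 knockout. Each of the 5 lay lower in the double knockout than in the Atg5 knockout. Fn1 had the widest fold range over the groups and Thbs1 the narrowest. In bulk RNA, fewer cells with a transcript and less of it per cell cannot be told apart.

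**Figure D1:**
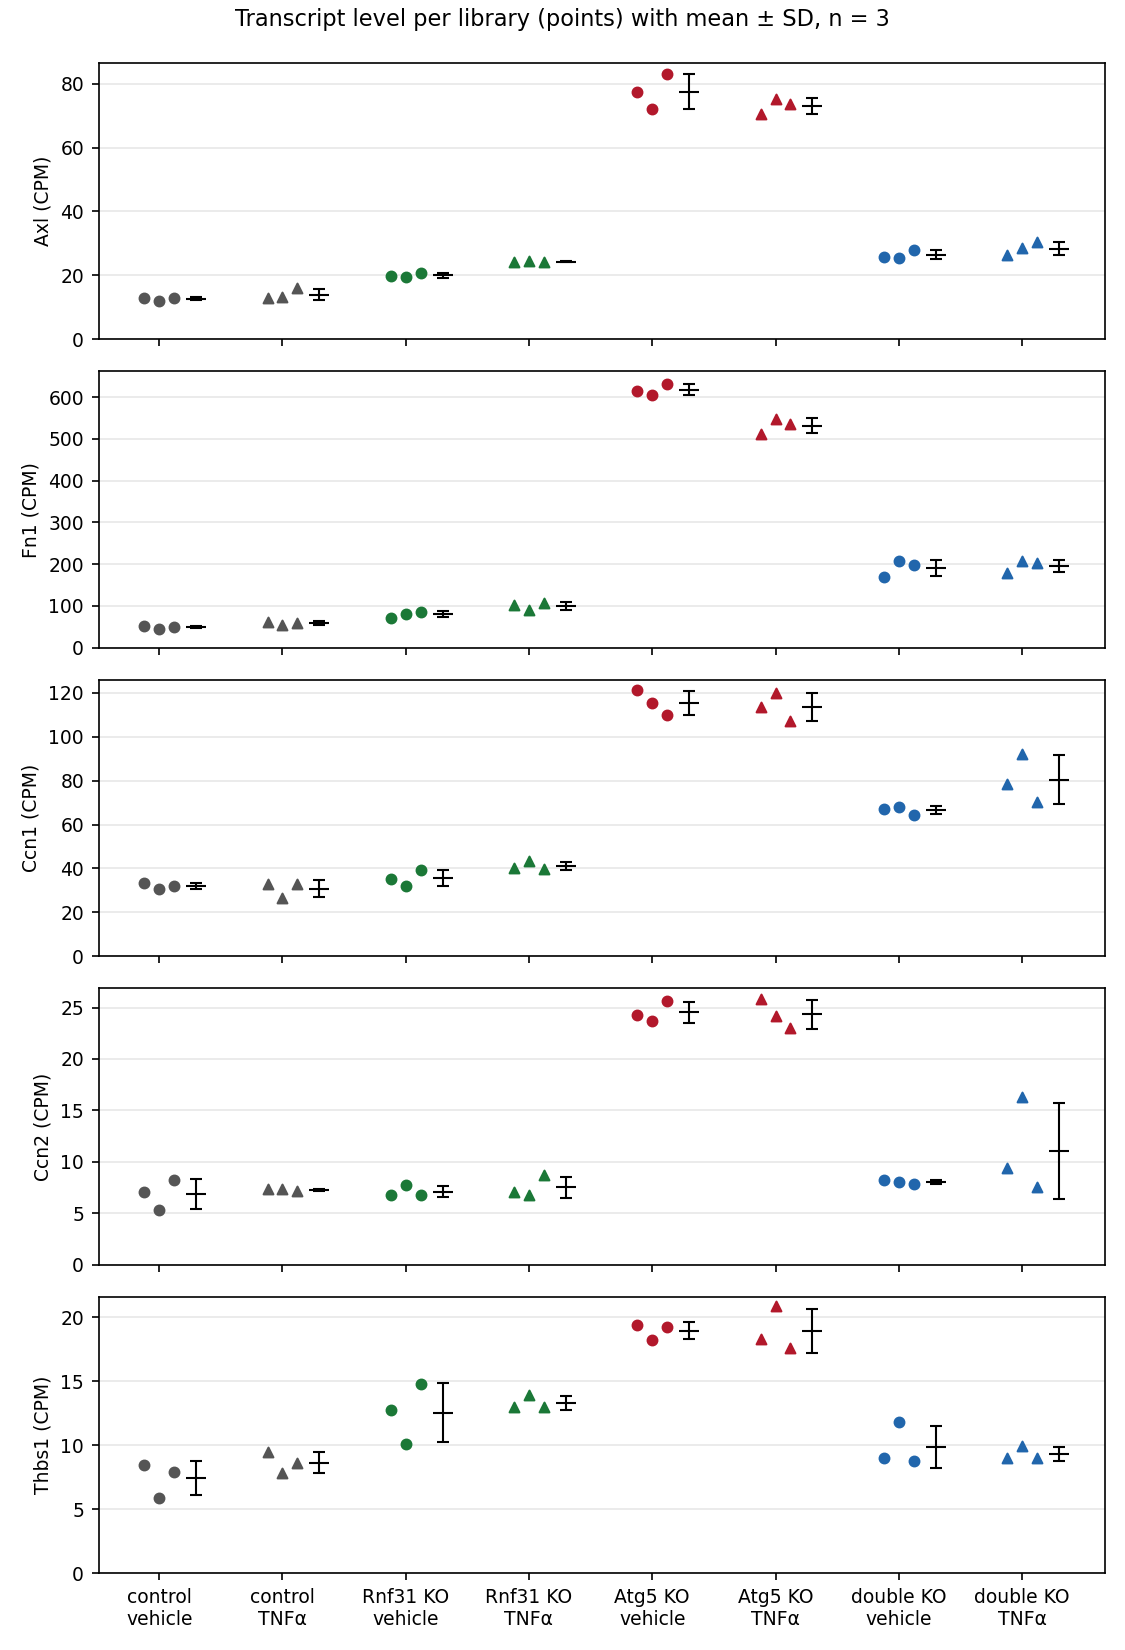
Levels of Axl, Fn1, Ccn1, Ccn2 and Thbs1 (y axis, CPM, linear from 0) in the 8 groups (x axis). Points are single libraries, circles vehicle and triangles TNFα, and bars are mean ± SD of 3 libraries. In every panel the 6 Atg5 knockout libraries lie above the other 18.

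Axl, the receptor, was counted at 13.0, 12.1 and 12.9 CPM in the control vehicle libraries and at 77.4, 72.1 and 82.9 CPM in those of the Atg5 knockout. The Rnf31 knockout gave 19.8, 19.5 and 20.9 CPM, and the double knockout 25.8, 25.6 and 28.1 CPM. The 4 genotypes did not overlap: control was lowest, then the Rnf31 knockout, the double knockout and, well above them, the Atg5 knockout. Under TNFα the means were 14.0 ± 1.76 CPM in control cells, 24.2 ± 0.193 in the Rnf31 knockout, 28.4 ± 2.03 in double knockout cells and 73.1 ± 2.39 in Atg5 knockout cells (SD, n = 3 each). Over all 8 groups, the vehicle and TNFα libraries of a genotype overlapped except in the Rnf31 knockout, where TNFα libraries (24.0 to 24.4 CPM) lay above vehicle. Against control with vehicle, Axl was 6.12-fold higher in the Atg5 knockout (log2 2.61, 95% interval 2.46 to 2.76, edgeR quasi-likelihood test with Benjamini-Hochberg adjusted p = 3.34e-21). It was 1.58-fold higher in the Rnf31 knockout (log2 0.66, 0.50 to 0.82, edgeR adjusted p = 2.67e-07).

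Fn1, which encodes fibronectin, had control vehicle values of 52.5, 45.9 and 50.4 CPM and Atg5 knockout values of 615, 606 and 632 CPM. The Rnf31 knockout gave 71.6, 81.9 and 85.4 CPM, and the double knockout 170.0, 208 and 197 CPM. The order of genotypes was that of Axl, again with no overlap between them. With TNFα, Fn1 stood at 58.5 ± 4.51, 99.8 ± 9.27, 196 ± 15.01 and 532 ± 17.7 CPM (SD, n = 3 each) in the same order of genotypes. Only in the double knockout did TNFα and vehicle libraries overlap; in control and Rnf31 knockout cells the TNFα libraries were the higher ones, while Atg5 knockout cells had the lower ones under TNFα. Fn1 was 12.5-fold higher in the Atg5 knockout than in control cells with vehicle (log2 3.64, 3.47 to 3.81, edgeR adjusted p = 3.54e-23). Among the 11282 genes reaching 2 CPM in some group, that change ranked 89 from the highest, ahead of Axl (187), Ccn1 (344), Ccn2 (345) and Thbs1 (585). In the Rnf31 knockout Fn1 was 1.61-fold higher (log2 0.69, 0.52 to 0.85, edgeR adjusted p = 2.40e-07); with a correction for transcript length this fell to log2 0.41 (edgeR adjusted p = 1.45e-05).

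Ccn1 was measured at 33.6, 30.5 and 32.1 CPM in control vehicle libraries, and at 121, 115 and 110.0 CPM in the Atg5 knockout. The double knockout lay between them at 67.1, 68.2 and 64.5 CPM, whereas the Rnf31 knockout (35.1, 32.0 and 39.5 CPM) overlapped control. Under TNFα the values were 30.8 ± 3.87 CPM in control cells, 41.2 ± 1.90 in the Rnf31 knockout, 80.4 ± 11.2 in double knockout cells and 113 ± 6.32 in Atg5 knockout cells (SD, n = 3 each). TNFα and vehicle libraries overlapped in control and Atg5 knockout cells, and the TNFα libraries were higher in the other genotypes. Ccn1 was 3.61-fold higher in the Atg5 knockout than in control cells with vehicle (log2 1.85, 1.67 to 2.03, edgeR adjusted p = 1.33e-16). In the Rnf31 knockout its difference from control was log2 0.15 (-0.03 to 0.34, edgeR adjusted p = 0.168), and it passed the threshold with the length correction (0.25, edgeR adjusted p = 0.0229).

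Ccn2, the close relative of Ccn1, was raised in the Atg5 knockout and near the control level in the other lines. The control vehicle libraries held 7.04, 5.36 and 8.27 CPM and the Atg5 knockout libraries 24.3, 23.7 and 25.7 CPM. The Rnf31 knockout gave 6.77, 7.70 and 6.81 CPM and the double knockout 8.20, 8.08 and 7.80 CPM, both overlapping control. With TNFα the Atg5 knockout stood at 24.3 ± 1.42 CPM, control at 7.27 ± 0.120 and the Rnf31 knockout at 7.52 ± 1.02 (SD, n = 3 each), while the double knockout libraries were spread from 7.53 through 9.35 to 16.3 CPM. Sorted by mean level, each of the 6 groups outside the Atg5 knockout overlapped its neighbour. Ccn2 was 3.58-fold higher in the Atg5 knockout than in control cells with vehicle (log2 1.84, 1.496 to 2.18, edgeR adjusted p = 2.03e-10). In the double knockout the difference from control was log2 0.23 (-0.14 to 0.59, edgeR adjusted p = 0.294), so a rise of up to that upper bound cannot be told from none.

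Thbs1, which encodes thrombospondin-1, was higher in the Atg5 knockout and, less so, in the Rnf31 knockout with vehicle. Its control vehicle values were 8.42, 5.90 and 7.88 CPM, those of the Atg5 knockout 19.4, 18.2 and 19.2 CPM, and those of the Rnf31 knockout 12.7, 10.1 and 14.8 CPM. The double knockout libraries, at 8.98, 11.8 and 8.81 CPM, lay just above control and overlapped the Rnf31 knockout. Under TNFα, Thbs1 was at 8.64 ± 0.837, 13.3 ± 0.532, 9.30 ± 0.532 and 18.9 ± 1.70 CPM (SD, n = 3 each) in control, Rnf31, double and Atg5 knockout cells. Vehicle and TNFα libraries overlapped in all 4 genotypes. Thbs1 was 2.56-fold higher in the Atg5 knockout than in control (log2 1.36, 1.09 to 1.63, edgeR adjusted p = 6.29e-10) and 1.70-fold higher in the Rnf31 knockout (log2 0.77, 0.50 to 1.04, edgeR adjusted p = 3.68e-05; 0.63 without control vehicle replicate 2). Its difference between double knockout and control was log2 0.42 (0.14 to 0.70, edgeR adjusted p = 0.0111). That call was lost with the length correction (0.28, edgeR adjusted p = 0.0789), without control vehicle replicate 2 (0.27, edgeR adjusted p = 0.108) and without double knockout vehicle replicate 2 (0.28, edgeR adjusted p = 0.105).

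Per kilobase of the longest transcript, Ccn1 was the most abundant of the 5 in control vehicle cells at 15.9 ± 0.764 CPM per kb (SD, n = 3), followed by Fn1 (5.96 ± 0.405), Axl (2.97 ± 0.116), Ccn2 (2.77 ± 0.585) and Thbs1 (1.27 ± 0.227). Axl and Ccn2 were within their spread of each other. In the Atg5 knockout Fn1 led at 74.3 ± 1.60 CPM per kb, above Ccn1 at 57.2 ± 2.76, Axl at 18.2 ± 1.27, Ccn2 at 9.85 ± 0.408 and Thbs1 at 3.24 ± 0.111. Fibronectin thus passed Ccn1 on the scale per kilobase in the Atg5 knockout, and in the double knockout Ccn1 was ahead again at 33.0 ± 0.952 against 23.1 ± 2.35 CPM per kb.

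Counted over the set, 5 of 5 members passed as higher in the Atg5 knockout against control with vehicle, where 62.0% of all genes tested passed and 31.3% passed as higher. The libraries of these 2 groups did not overlap for 5 of 5, as for 61.6% of all genes. The members' median was log2 1.85 and that of all genes 0.01. In the Rnf31 knockout 3 of 5 passed, all higher, beside 45.6% of all genes (24.1% as higher), and the same 3 did not overlap (52.1% of all genes). In the double knockout 4 of 5 passed, all higher, beside 52.4% (25.3% as higher and 27.2% as lower), with a median of log2 1.06, and 4 did not overlap (53.6%). These comparisons share the control libraries and a large share of all genes passed in each, so the counts alone say little and the sizes carry the description. Without control vehicle replicate 2, the Atg5 knockout differences were log2 2.58 for Axl, 3.58 for Fn1, 1.81 for Ccn1, 1.68 for Ccn2 and 1.21 for Thbs1, all still called higher, and the double knockout count fell to 3 of 5.

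**Figure D2:**
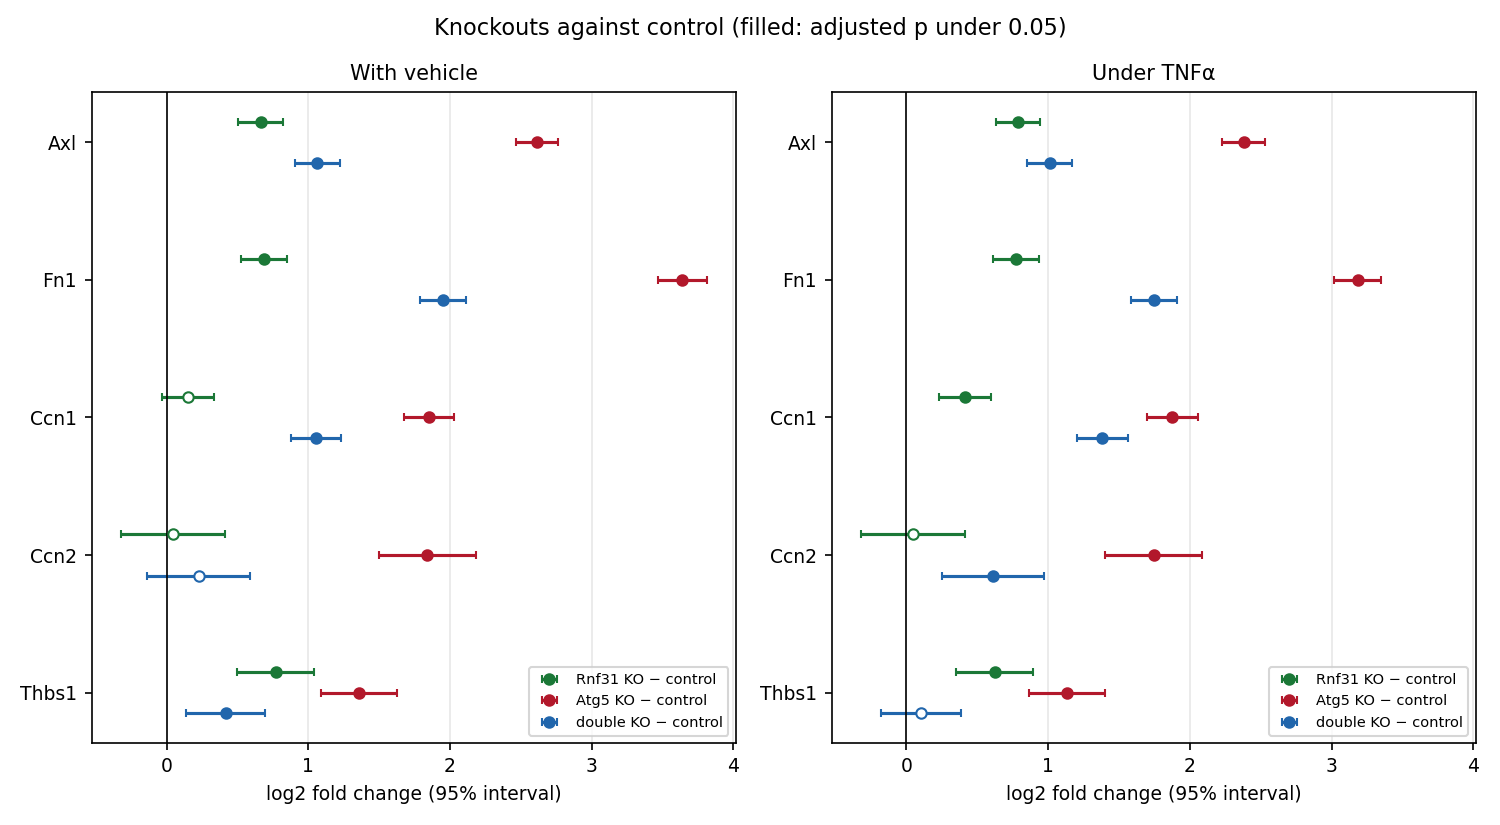
Log2 fold change of each knockout against control cells (x axis) for the 5 genes (y axis), with vehicle on the left and under TNFα on the right. Points are edgeR estimates and bars 95% intervals; filled points have an adjusted p under 0.05. The Atg5 knockout gives the largest value for each gene on both sides, from 1.13 for Thbs1 under TNFα to 3.64 for Fn1 with vehicle.

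The same knockouts compared under TNFα use other libraries. All 5 members were again higher in the Atg5 knockout, by log2 2.38 (Axl), 3.18 (Fn1), 1.88 (Ccn1), 1.74 (Ccn2) and 1.13 (Thbs1), where 58.9% of all genes passed, 29.9% as higher and 29.0% as lower, and none of the 5 overlapped control (66.5% of all genes did not). The Rnf31 knockout had 4 of 5 higher beside 32.3% of all genes (17.6% as higher): Axl by log2 0.79, Fn1 by 0.77, Ccn1 by 0.42 and Thbs1 by 0.62, while Ccn2 differed by 0.05 (-0.32 to 0.41). The same 4 did not overlap control (46.9% of all genes). The double knockout had 4 of 5 higher beside 45.7% (22.6% as higher), and 4 of 5 did not overlap (54.8%). Axl differed by log2 1.01, Fn1 by 1.74, Ccn1 by 1.38, Ccn2 by 0.61 and Thbs1, not called, by 0.10 (-0.18 to 0.39). The Ccn2 call (edgeR adjusted p = 0.00550) rests on double knockout TNFα replicate 2, the library at 16.3 CPM; without it the difference was log2 0.23 (edgeR adjusted p = 0.214) and the count 3 of 5.

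The double knockout was then compared with each single knockout, with vehicle. All 5 genes were lower in it than in the Atg5 knockout, Axl by a log2 change of -1.55 (-1.69 to -1.41, edgeR adjusted p = 3.53e-16), Fn1 by -1.69 (-1.84 to -1.53, edgeR adjusted p = 4.37e-16) and Ccn2 by -1.61 (-1.95 to -1.27, edgeR adjusted p = 9.19e-09). Ccn1 changed by log2 -0.79 (edgeR adjusted p = 9.57e-09) and Thbs1 by -0.94 (edgeR adjusted p = 1.07e-06). Libraries of these lines did not overlap for any of them, as for 47.4% of all genes, and 38.1% of all genes passed in this comparison, 19.8% as lower. Under TNFα the 5 were lower as well, by log2 values of -1.37, -1.44, -0.50, -1.13 and -1.03 for Axl, Fn1, Ccn1, Ccn2 and Thbs1, beside 38.2% of all genes (19.4% as lower), again with no overlap (49.1%).

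Against the Rnf31 knockout with vehicle, the double knockout had more Axl (log2 0.40, 0.25 to 0.55), Fn1 (1.27, 1.11 to 1.42) and Ccn1 (0.90, 0.73 to 1.08), less Thbs1 (-0.35, -0.62 to -0.08, edgeR adjusted p = 0.0271), and a Ccn2 difference of 0.18 that did not pass (edgeR adjusted p = 0.428). Of all genes 48.1% passed, 22.5% as higher and 25.6% as lower. Libraries did not overlap for 4 of 5 (56.5% of all genes), Ccn2 included. The Thbs1 libraries of these lines overlapped, and the call was lost in a fit of the 2 groups alone (-0.33, edgeR adjusted p = 0.0641) and without any of Rnf31 knockout vehicle replicates 1 and 3 and double knockout vehicle replicates 1 and 3 (-0.31, -0.18, -0.29 and -0.24).

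If both knockouts acted independently on a log2 scale, the double knockout difference from control would equal the sum of the single ones. It was below that sum for each member. For Axl the sum was 3.28 and the double knockout value 1.06, a gap of log2 -2.21 (-2.43 to -2.001, edgeR adjusted p = 3.85e-15). For Fn1 the sum was 4.33 against 1.95, a gap of -2.37 (-2.60 to -2.15, edgeR adjusted p = 3.15e-15).

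Ccn1 had a sum of 2.00 against 1.06 (gap -0.95, edgeR adjusted p = 6.40e-07), Ccn2 1.89 against 0.23 (gap -1.66, edgeR adjusted p = 5.11e-06) and Thbs1 2.13 against 0.42 (gap -1.71, edgeR adjusted p = 4.79e-08). The double knockout values were below even the Atg5 knockout alone for all 5, and for Thbs1 below the Rnf31 knockout alone. Of all genes tested, 40.7% departed from the sum, 21.8% downward. These gaps share libraries with the comparisons above and are no independent evidence of them.

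**Figure D3:**
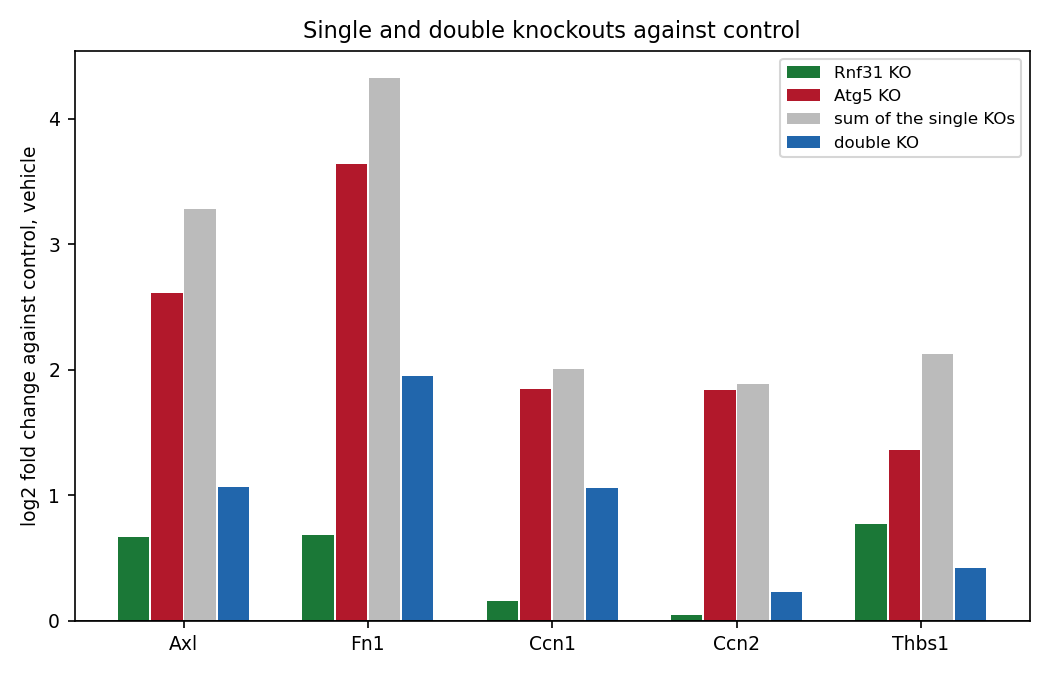
Log2 fold change against control cells with vehicle (y axis, from 0) for each gene (x axis): Rnf31 knockout, Atg5 knockout, the sum of both and the double knockout. For every gene the double knockout bar is shorter than the grey bar of the sum, for example 1.06 against 3.28 for Axl.

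TNFα itself moved these genes little. Its libraries did not overlap vehicle for 1 of 5 genes in control cells (20.7% of all genes did not), 3 in the Rnf31 knockout (21.4%), 1 in the Atg5 knockout (21.7%) and 1 in the double knockout (11.9%). In control cells 0 of 5 passed by edgeR (0.0961% of all genes did), with 1 at an unadjusted p under 0.05 and 1 called by DESeq2, in both cases Fn1 (log2 0.24, 0.07 to 0.41, edgeR adjusted p = 0.114). Without control vehicle replicate 1, Fn1 passed in edgeR too (0.28, edgeR adjusted p = 0.0345). Without control vehicle replicate 2, the library that stood apart, it was log2 0.19 (edgeR adjusted p = 0.704). In Atg5 knockout cells 0 of 5 passed by edgeR (0.00% of all genes), with 1 at an unadjusted p under 0.05, again Fn1 but in the lower direction (-0.22, -0.37 to -0.07, edgeR adjusted p = 0.235), and 0 by DESeq2. A fit of these 2 groups alone called it (-0.21, edgeR adjusted p = 0.0371). In double knockout cells 0 of 5 passed by edgeR (0.133% of all genes, 0.0665% in each direction) and 0 by DESeq2, with 2 at an unadjusted p under 0.05, Ccn1 (0.27, edgeR adjusted p = 0.241) and Ccn2 (0.47, edgeR adjusted p = 0.409). Without double knockout TNFα replicate 2 the number at an unadjusted p under 0.05 was 0. With all libraries the intervals allow responses of up to log2 0.44 for Ccn1 and 0.82 for Ccn2 in that line.

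In Rnf31 knockout cells 1 of 5 passed, beside 1.17% of all genes and 0.902% as higher: Fn1 was higher by log2 0.32 (0.16 to 0.48, edgeR adjusted p = 0.0314). The call was lost with the length correction (0.25, edgeR adjusted p = 0.0518) and without Rnf31 knockout vehicle replicate 1 (0.26) or 2 (0.35) or TNFα replicate 1 (0.31) or 3 (0.27). Axl, at log2 0.27 (0.12 to 0.42, edgeR adjusted p = 0.0694), was called by DESeq2 (adjusted p = 0.0347) and by edgeR when these 2 groups were fitted alone (adjusted p = 0.0262). Besides Fn1 and Axl, Ccn1 was also at an unadjusted p under 0.05 in edgeR (log2 0.21, 0.03 to 0.39, edgeR adjusted p = 0.313).

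**Figure D4:**
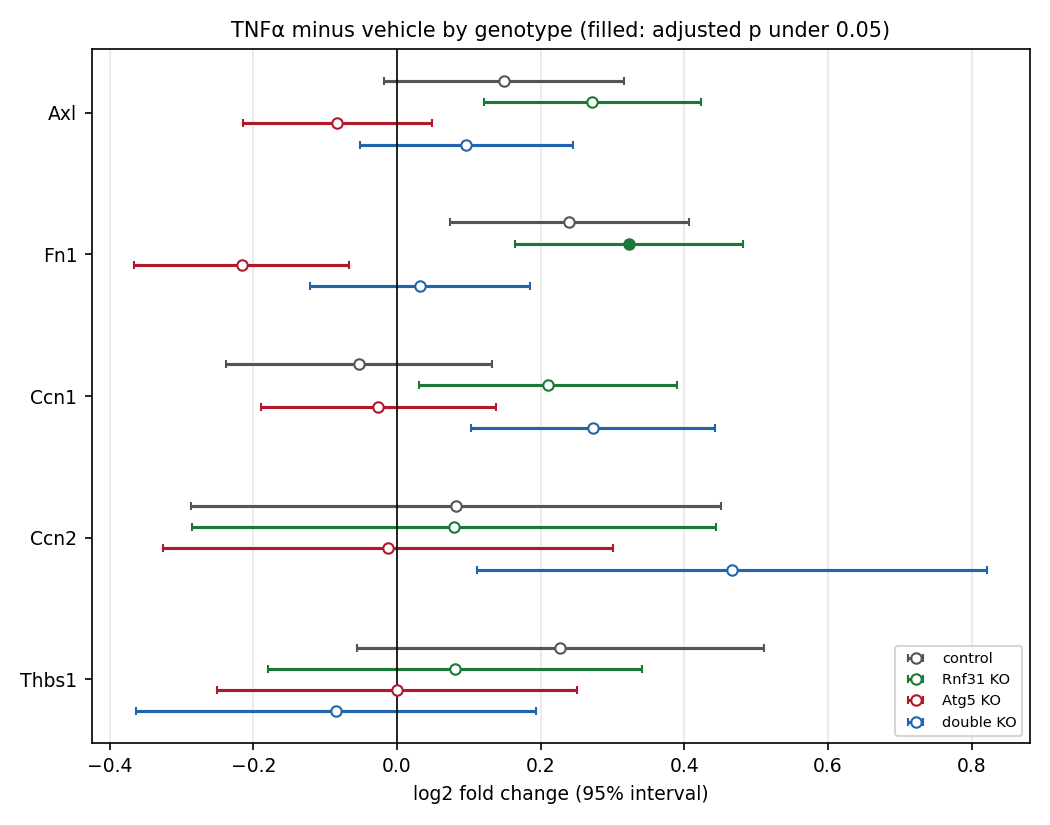
Log2 fold change of TNFα over vehicle (x axis) for the 5 genes (y axis) in the 4 genotypes. Points are edgeR estimates and bars 95% intervals, and the filled point has an adjusted p under 0.05. Fn1 in the Rnf31 knockout, at 0.32, is the 1 filled point, and no value lies beyond 0.47 in either direction.

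Whether the response itself differed from that of control cells was tested directly. For the Atg5 knockout 1 of 5 passed, beside 11.4% of all genes (6.42% as lower): the Fn1 response was lower by a log2 difference of -0.46 (-0.68 to -0.23, edgeR adjusted p = 0.0139). With the length correction the difference was -0.22 (edgeR adjusted p = 0.151) and the count 0. Besides Fn1, Axl was at an unadjusted p under 0.05 for this line (log2 -0.23, -0.45 to -0.02, edgeR adjusted p = 0.132). For the Rnf31 knockout 0 of 5 passed by edgeR (0.00739% of all genes), with 1 at an unadjusted p under 0.05, Ccn1 (0.26, edgeR adjusted p = 0.406), and 0 by DESeq2. For the double knockout 0 of 5 passed by edgeR (1.15%), with 1 at an unadjusted p under 0.05, again Ccn1 (0.33, edgeR adjusted p = 0.133), and 0 by DESeq2. Without double knockout TNFα replicate 3 that Ccn1 difference passed (0.40, edgeR adjusted p = 0.0424).

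Gene lists from the same pathways were read in the Atg5 knockout against control with vehicle. They are described by counts and medians, to be read against the 31.3% of all genes higher and 30.7% lower. The genes named from each list were partly picked by the smallest adjusted p in this same comparison. Of the partners of Axl, Pros1, a ligand of Axl's sister receptors, was higher (log2 1.07, SE 0.10), Tyro3, a sister receptor, was lower (-0.64, SE 0.09), and Mertk, the other one, differed by -0.16 (SE 0.29, edgeR adjusted p = 0.646). Gas6 was not analysed here.

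Receptors for fibronectin, thrombospondin and CCN proteins were higher for 11 of 15 tested and lower for 2, with a median of log2 1.04. The integrin α5 subunit of the classical fibronectin receptor, Itga5, went from 38.0 ± 4.33 to 97.5 ± 2.21 CPM (log2 1.36, SE 0.06) and its partner Itgb1 from 631 ± 6.40 to 1074 ± 27.9 CPM (log2 0.77, SE 0.04; SD, n = 3 each). Itgav and Itgb3, which form a vitronectin and fibronectin receptor, were higher by log2 1.28 and 1.04, and Cd47, the thrombospondin receptor, by 1.05. The heparan sulfate proteoglycan Sdc4 was higher by 2.10 and the endocytic receptor Lrp1 by 2.03. The 2 lower receptor genes were Itga4 (log2 -0.56, SE 0.07) and Itga9 (-0.91, SE 0.13).

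Of YAP and TEAD targets other than Ccn1 and Ccn2, 10 of 15 were higher and 2 lower, with a median of log2 0.40. Tissue factor, F3, was higher by log2 1.88, Gadd45b by 2.28 and Myof by 1.23, while Fjx1 (-1.07) and Amotl2 (-0.37), which encodes a Hippo-pathway scaffold, were lower. With the length correction the list had 8 higher and 4 lower. Among Hippo core genes 9 of 15 were higher and 2 lower, with a median of log2 0.22. Wwtr1, which encodes TAZ, was higher by log2 0.80, Sav1 by 0.61, Vgll4 by 0.53 and Stk4 by 0.46. Yap1 was lower by a log2 change of -0.16. With the length correction the Hippo count was 6 and 3, and the median 0.07.

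SRF and MRTF genes, mostly of the actin cytoskeleton, were higher for 10 of 14 and lower for 0, with a median of log2 0.59, among them the focal adhesion gene Vcl (1.63), Cnn2 (1.51) and Flna (0.70), while Srf itself changed by 0.22. Without control vehicle replicate 2 the count was 8 higher and 1 lower. Genes of TGF-β ligands, receptors, Smads and targets were higher for 9 of 14 and lower for 2, with a median of 0.48. Tgfb1, a ligand, rose by log2 1.64, and Smad2, a signal transducer, fell by 0.52 on the log2 scale.

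Other matricellular and matrix genes were higher for 13 of 18 and lower for 0 (median log2 0.84), including Loxl2, a collagen cross-linking enzyme (3.02), Hspg2, the basement membrane proteoglycan perlecan (2.31), Col5a1 (1.52), Matn2 (1.28) and Sparc (0.61). Matrix proteases and their inhibitors were higher for 10 of 13 and lower for 2 (median 1.12), with Plau (2.75) and Plat (2.48), the plasminogen activators, Timp3 (1.93) and Adamts1 (1.33) called higher and Mmp14 by 0.15. Lower in that list were Timp2 (log2 -0.16, SE 0.04) and Adam12 (-0.99, SE 0.12). Dedifferentiation and invasion genes were higher for 8 of 13 and lower for 2 (median 0.44): Ngfr, a neural crest marker, was higher by 3.83, Jun by 1.34, Nes by 1.21 and Vim by 0.76, and Snai2 differed by 0.31 (edgeR adjusted p = 0.160). The 2 lower ones were Sox9 (log2 -1.49, SE 0.21) and Pdgfrb (-0.52, SE 0.13). Melanocyte-lineage genes were higher for 1 of 10 and lower for 7 (median -0.14). Mlana, Pmel and Gpr143, which encode melanosome proteins, were lower (log2 -0.95, -0.55 and -1.28) and Mc1r was higher (0.57). The lineage factors Mitf (-0.02, SE 0.05) and Sox10 (0.07, SE 0.07) did not pass, so the high Axl of this line stood beside an Mitf level of 422 ± 17.2 CPM against 427 ± 22.8 CPM in control cells (SD, n = 3 each).

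**Figure D5:**
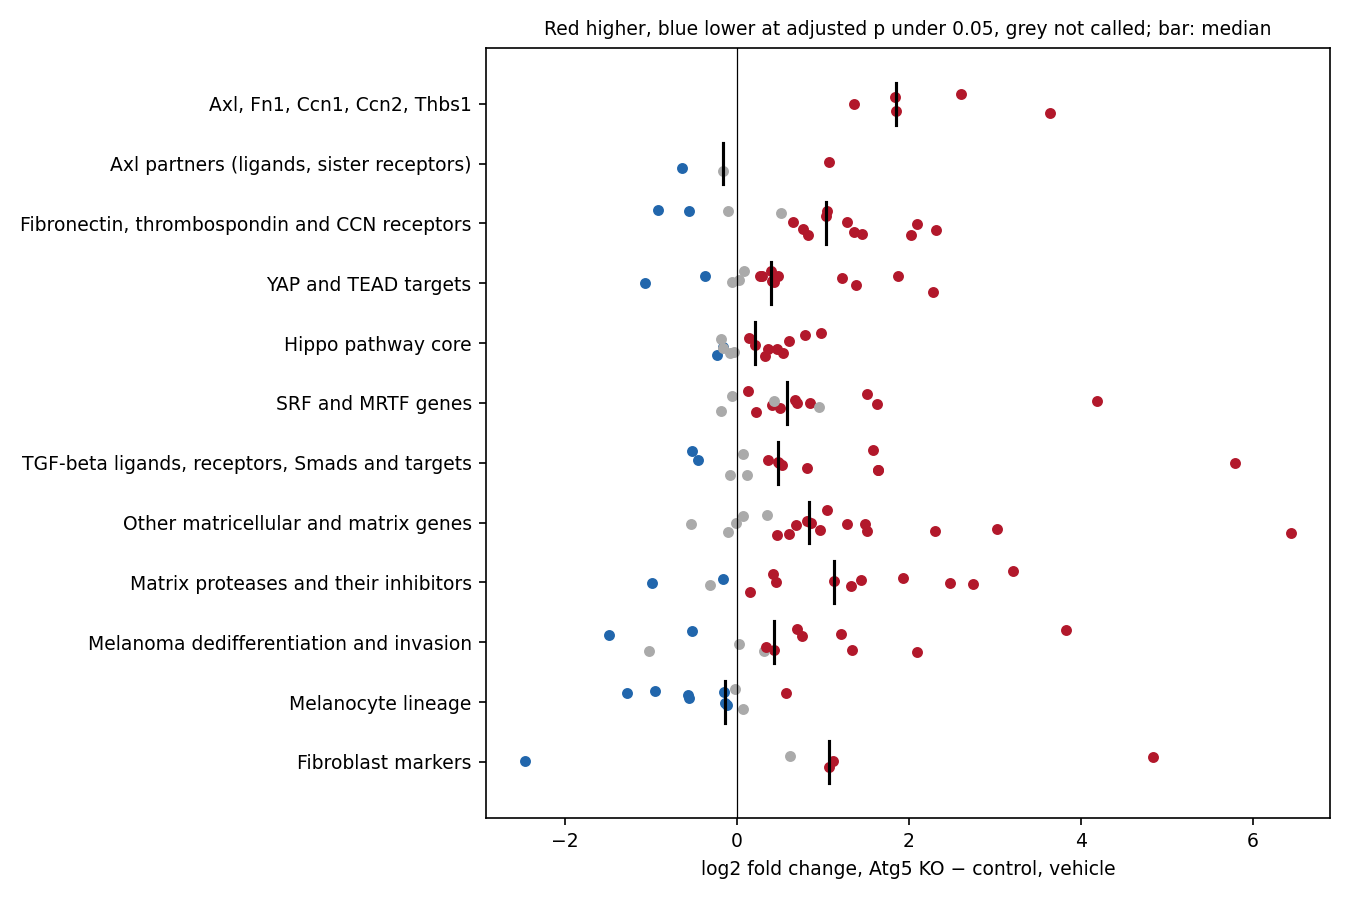
Log2 fold change of Atg5 knockout against control cells with vehicle (x axis) for each tested gene of the lists (y axis); red points were called higher, blue lower and grey neither, and the bar is the list's median. The members lie between 1.36 and 3.64, and the medians run from -0.16 for the 3 Axl partners to 1.12 for the proteases among the lists of other genes of these pathways.

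In the double knockout against the Atg5 knockout with vehicle, where 18.2% of all genes were higher and 19.8% lower, the same lists were read again. Receptors were higher for 1 of 15 and lower for 9, other matrix genes for 1 and 12 of 18, proteases for 1 and 10 of 13, SRF and MRTF genes for 1 and 9 of 14 and dedifferentiation genes for 1 and 9 of 13. YAP and TEAD targets were higher for 4 and lower for 7 of 15, Hippo core genes for 2 and 5 of 15, TGF-β genes for 3 and 4 of 14, and melanocyte-lineage genes for 6 and 0 of 10. Lrp1 (log2 -2.18, SE 0.10) and Timp3 (-2.72, SE 0.08) were lower there, and Timp3 was also below control (-0.79, SE 0.09). Itgav, at -0.07 (SE 0.06, edgeR adjusted p = 0.34), stayed near its Atg5 knockout level.

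Fibroblasts also express these matrix genes, so markers of other cells were read beside them; their part in the result was not tested. Of 10 fibroblast markers 6 have counts and 5 were tested, 3 higher and 1 lower in the Atg5 knockout with vehicle. Their summed level was 22.7 to 27.3 CPM in control, 27.9 to 32.0 in the Rnf31 knockout, 49.2 to 54.3 in the Atg5 knockout and 43.2 to 51.9 in the double knockout with vehicle. Under TNFα it was 20.5 to 22.8, 25.3 to 28.3, 51.1 to 52.2 and 46.5 to 55.2 CPM in the same order. Most of it was S100a4 (40.5 ± 2.11 CPM in the Atg5 knockout and 40.4 ± 4.93 in the double knockout; SD, n = 3). Col1a1, a fibrillar collagen gene, was at 4.13 ± 0.846 CPM in control, 7.38 ± 0.709 in the Rnf31 knockout, 8.67 ± 1.98 in the Atg5 knockout and 6.18 ± 0.691 in the double knockout with vehicle, and was called higher in the Atg5 knockout (log2 1.07, edgeR adjusted p = 1.81e-05) and in the Rnf31 knockout (0.84, edgeR adjusted p = 0.000725). Pdgfra, Col1a2, Col3a1 and Col6a3 had group means of at most 1.76, 1.52, 0.155 and 0.454 CPM. Col1a2 was the 1 marker called lower in the Atg5 knockout with vehicle (log2 -2.47, SE 0.47, edgeR adjusted p = 5.54e-05). Dcn, Lum, Thy1 and Fap were not analysed here. Of 6 macrophage markers 2 have counts, Cd68 and Lyz2, which summed to 2.31 to 11.03 CPM over all libraries, highest in the Atg5 knockout with vehicle. The 1 endothelial marker with counts, Pecam1, reached at most 0.368 CPM, and 0 of 5 keratinocyte markers have counts.

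By Pearson correlation of the 8 group means of log2 CPM, over 838 genes with at least 2 CPM on average and an SD of at least 0.5 between groups, the patterns most like each member were as follows. For Axl they were Magi3 (r = 0.995), Calcoco1 (0.995) and Ndrg4 (0.994), and for Fn1 Dtna (0.996), Dclk1 (0.995) and Rnd1 (0.994). Ccn1 was followed by Btg1 (0.998), Gls2 (0.997) and Tubb2a (0.996), and Ccn2 by Tsc22d3 (0.998), Rassf4 (0.994) and Masp1 (0.994). Thbs1 was closest to Col5a1 (0.985), a fibrillar collagen gene that was also higher in the Rnf31 knockout (log2 0.80, SE 0.07), then Ankrd50 (0.957) and Adm (0.957). Between members r ran from 0.692 (Ccn1 and Thbs1) to 0.983 (Fn1 and Ccn1), over the same 8 means, which share libraries and scaling; these values are descriptions.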

How the data were processed

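RNA from 24 B16F10 libraries was measured. The values deposited by the authors are treated here like expected counts per gene symbol, before any normalization; this was inferred from the submitters' processing notes, which name STAR, RSEM, DESeq2, GRCm38 and mm10 with no versions, and from the values, which are whole numbers with 23 rows equal to another in every library. The annotation, the strand setting and any filter are not stated in the sources used here, and reads of overlapping or antisense genes may be mixed. Rounding changed no value. A nameless row, 0.140% of the counts on average, was dropped. Groups came from the sample labels.

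edgeR 4.0.16 (R 4.3.3) was run with TMM scaling, filterByExpr (2211 genes removed, 13527 kept) and the quasi-likelihood test on 8 group means over all 24 libraries (16 residual degrees of freedom), for 17 comparisons. A gene was called at a Benjamini-Hochberg adjusted p under 0.05 over all genes tested. CPM used TMM-scaled library sizes, and intervals are 95%. The biological coefficient of variation was 6.17%. Length is the longest GENCODE M21 transcript, known for 13500 tested genes (99.8%); 15694 symbols matched. The length correction entered each library's lowess trend (span 0.5) on log2 length as an offset. Alternatives were RLE factors, no filter, a replicate block, the length correction, a fit of the groups compared alone, DESeq2 1.42.0 and leaving out each library. The list counts under 4 of these settings were added after the data were seen.

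The genes, lists and comparisons were chosen with earlier results of these data known. Named besides the members were 27 genes set by name, from each list the 4 genes of smallest adjusted p in the Atg5 knockout with vehicle and at least 2 CPM in a group, and the 3 genes most correlated with each member (log2 CPM with a prior count of 2). A gene that this rule names is not reported here. Fibroblast and macrophage markers read as cell checks were named outside this rule. So were the lower genes of the receptor, protease and dedifferentiation lists. On data simulated for the Atg5 knockout against control with vehicle (12654 genes), the test recovered 88 of 100 genes changed 1.5-fold and 100 of 100 changed 2-fold, with 11 false calls. The simulation changed a far smaller share of genes than the 62.0% called in the real comparison. Its figures may therefore not carry over.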

Additional observations from a re-analysis of the deposited data

Results flagged for a closer look

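The groups hold 3 libraries each, too few for a test of single outlying samples. Differences between genotypes in the same contrast passed the test in 6 cases. The Fn1 response to TNFα differed between the Atg5 knockout and control cells by log2 -0.46 (SE 0.11, edgeR adjusted p = 0.0139), in a comparison where 11.4% of all genes passed, and the difference was -0.22 with the length correction.

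In a comparison between lines with vehicle, the log2 change from the Rnf31 to the double knockout was below that from control to the Atg5 knockout for each of the 5 genes. The difference was log2 -2.21 for Axl (SE 0.10), -2.37 for Fn1 (SE 0.11), -0.95 for Ccn1 (SE 0.12), -1.66 for Ccn2 (SE 0.24) and -1.71 for Thbs1 (SE 0.18), where 40.7% of all genes passed. All 5 kept direction and call under every alternative run, each library left out included.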

How the results depend on the processing

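With the 5 genes in 17 comparisons, most directions and calls were kept. The number of members called moved as follows. For TNFα in control cells it was 0, and 1 with DESeq2 (0 to 1 leaving out a library). In Rnf31 knockout cells it was 1, and 2 with the replicate block, 0 with the length correction, 2 in a fit of the groups alone, 2 with DESeq2 and 0 to 1 leaving out a library of the comparison (2 without control vehicle replicate 2, which enters only through the shared spread). In Atg5 knockout cells it was 0, and 1 in a fit of the groups alone. For the response difference it was 1 (Atg5 knockout), and 0 with the length correction, and 0 (double knockout), with 0 to 1 leaving out a library. Between lines it moved by 1: Rnf31 knockout against control with vehicle 3, and 4 with the length correction; double knockout against control with vehicle 4, and 3 with the length correction and 3 to 4 leaving out a library; double against Rnf31 knockout 4, and 3 in a fit of the groups alone and 3 to 4 leaving out a library; double knockout against control under TNFα 4, and 3 to 4 leaving out a library. The cause was not tested.

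Signs turned for values near 0. The Thbs1 response in the Atg5 knockout was log2 0.00028, and -0.000871 with RLE factors and -0.00121 with DESeq2; the Ccn1 response difference of the Atg5 knockout was 0.03, and -0.067 with the length correction. Leaving out a library gave these ranges: in control cells under TNFα -0.11 to 0.044 (Ccn1) and -0.073 to 0.23 (Ccn2); in the Rnf31 knockout -0.029 to 0.15 (Ccn2) and -0.045 to 0.22 (Thbs1); in the Atg5 knockout -0.068 to 0.013 (Ccn1), -0.056 to 0.026 (Ccn2) and -0.078 to 0.049 (Thbs1); in the double knockout -0.047 to 0.10 (Fn1) and -0.16 to 0.069 (Thbs1). For Ccn2 in the Rnf31 knockout against control they were -0.11 to 0.19 with vehicle and -0.088 to 0.094 under TNFα. For response differences they were -0.15 to 0.15 (Ccn2, Rnf31 knockout), -0.070 to 0.084 (Ccn1) and -0.24 to 0.061 (Ccn2, Atg5 knockout), and -0.12 to 0.065 (Axl) and -0.00088 to 0.57 (Ccn2, double knockout).

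Counts over all genes moved more. TNFα in control cells called 13 genes, and 94 with no filter, 182 with the block, 0 with the length correction, 0 in a fit of the groups alone and 687 with DESeq2. The Rnf31 knockout called 158, and 331 in a fit alone and 251 with DESeq2; the Atg5 knockout 0, and 28 and 65; the double knockout 18, and 34 with the block, 8 alone and 70 with DESeq2. Response differences called 1 (Rnf31), and 11 with the block, 15 with the length correction and 55 with DESeq2; 1536 (Atg5), and 222 with the length correction and 504 alone; and 156 (double), and 533 with the block, 6 with the length correction, 5 alone and 784 with DESeq2.

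Deviations of same-numbered libraries correlated from -0.28 to 0.32 (median 0.04), and those of different-numbered libraries from -0.30 to 0.37 (median -0.03). These ranges overlap, and they do not settle whether replicate numbers pair the samples. The block changed 1 of the 85 single-gene calls, Axl under TNFα in the Rnf31 knockout (0.28, edgeR adjusted p = 0.0219). Ccn2 and Thbs1, with the fewest counts, have the widest intervals.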
